A study of Homo sapiens with 6 samples.

Results

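Mitochondrial ribosomal proteins are the protein components of the ribosome that works inside mitochondria. Their genes were taken from the deposited expression table as all rows whose symbol begins with MRPL (large subunit) or MRPS (small subunit) followed by a digit. This gave 78 genes of the 12793 rows, 49 MRPL and 29 MRPS. The study sequenced RNA of HCT15, a human colorectal cancer cell line, to ask what the RNA-binding protein RBM15 does within tumour cells. The tested samples were 3 libraries titled sgRBM15, whose genotype label is RBM15 knockout by CRISPR/Cas9. They were set against 3 libraries titled sgctrl, whose genotype label is WT. The labels do not say whether the knockout cells were 1 clone or a mixed population, nor whether replicates came from separate cultures. P-values thus speak for the spread among these libraries alone, and that spread may be technical.

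The mitochondrial ribosome translates the few mRNAs encoded by mitochondrial DNA, which specify core subunits of the respiratory chain and of ATP synthase. Its RNA is transcribed from mitochondrial DNA, while all of its proteins are encoded in the nucleus, made in the cytosol and imported. Some of these proteins descend from bacterial ribosomal proteins and others exist only in mitochondrial ribosomes. The large subunit joins amino acids and threads the new chain through an exit tunnel at the inner membrane, and the small subunit holds the mRNA and reads its codons.

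Expression was given as FPKM, a fragment count corrected for the length of the transcript and for library size, so levels can be set side by side between genes. Column sums lay between 402288 and 415057 FPKM, and the number of reads behind them is unknown. Correlations of log2(FPKM + 1) across genes were 0.992 to 0.993 within groups and 0.976 to 0.978 between groups, so each library was closer to its own group than to the other. The targeted gene went against its label. RBM15 had 17.3, 18.5 and 18.0 FPKM in the libraries labelled knockout, against 5.97, 5.89 and 5.51 FPKM in the control libraries (log2 difference 1.48, SE 0.0492, limma adjusted p = 3.88e-06). Gene-level FPKM do not show whether the edited transcript encodes a working protein, so every direction below rests on the labels. Of the epithelial and intestinal markers, 7 of 8 were listed, all 7 were tested, and 5 were lower (EPCAM, KRT18, KRT19, CDX2 and VIL1), KRT8 was higher and CDH1 did not pass. EPCAM averaged 415 ± 3.68 FPKM in the libraries labelled knockout and 528 ± 5.30 FPKM in the controls (SD, n = 3 each). Of the intestinal markers, VIL1 averaged 3.87 ± 0.222 against 17.0 ± 0.168 FPKM, and CDX2 9.52 ± 0.254 against 20.9 ± 0.138 FPKM, libraries labelled knockout given before controls. Of the haematopoietic markers, 1 of 5 was listed, and of the fibroblast and endothelial markers 1 of 6, all below 6 FPKM. The part that the lower intestinal markers have in the results below was not tested. In bulk RNA, fewer cells that express a gene and less RNA per cell cannot be told apart.

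Mitochondrial ribosomal protein mRNAs changed in both directions and by small amounts. All 78 genes passed the filter of a mean of at least 1 FPKM. Of the 49 MRPL genes, the libraries labelled knockout were higher for 12 and lower for 10, and 27 did not pass the test. Of the 29 MRPS genes, 6 were higher and 6 lower, and 17 did not pass. The test was limma on log2(FPKM + 1), with p-values adjusted by Benjamini-Hochberg over all 11451 tested genes and a threshold of 0.05. Of all tested genes it called 54.5%, 25.3% higher and 29.2% lower, so a changed gene was the common case in this table. The called share was 44.9% of MRPL and 41.4% of MRPS genes, below that background. The 2 groups of libraries did not overlap for 37 of the 78 genes, 47.4%, against 63% of all tested genes. Libraries labelled knockout lay above all controls for 18 members and below for 19, beside 29.6% and 33.4% of all tested genes.

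The changes were smaller than those of many other genes. The median log2 difference, libraries labelled knockout minus controls, was 0.056 over MRPL genes and -0.056 over MRPS genes, beside -0.018 over all tested genes. MRPL genes ranged from -0.46 to 0.49 and MRPS genes from -0.43 to 0.43. On the log2(FPKM + 1) scale, differences of less than 1.2-fold in either direction were found for 64 of the 78 genes (82.1%), beside 60.2% of all tested genes. The added 1 shrinks the differences of genes at low levels the most. On log2(FPKM + 1) of the deposited values, none of the 78 reached an absolute difference of 0.5, beside 13.8% of all tested genes. Under other settings some did. MRPL17 had 0.51 with 0.1 added to FPKM instead of 1, 0.51 on the TPM scale and 0.52 with median centring. Once a GC and length trend was removed, MRPL36 had 0.72, MRPS12 0.60, MRPL41 0.57 and MRPL17 0.54. The 78 genes also differ from the table in level, with medians of 37.1 FPKM for MRPL and 35.5 FPKM for MRPS genes against 12.7 FPKM for all tested genes, and in length, as given further on.

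**Figure D1:**
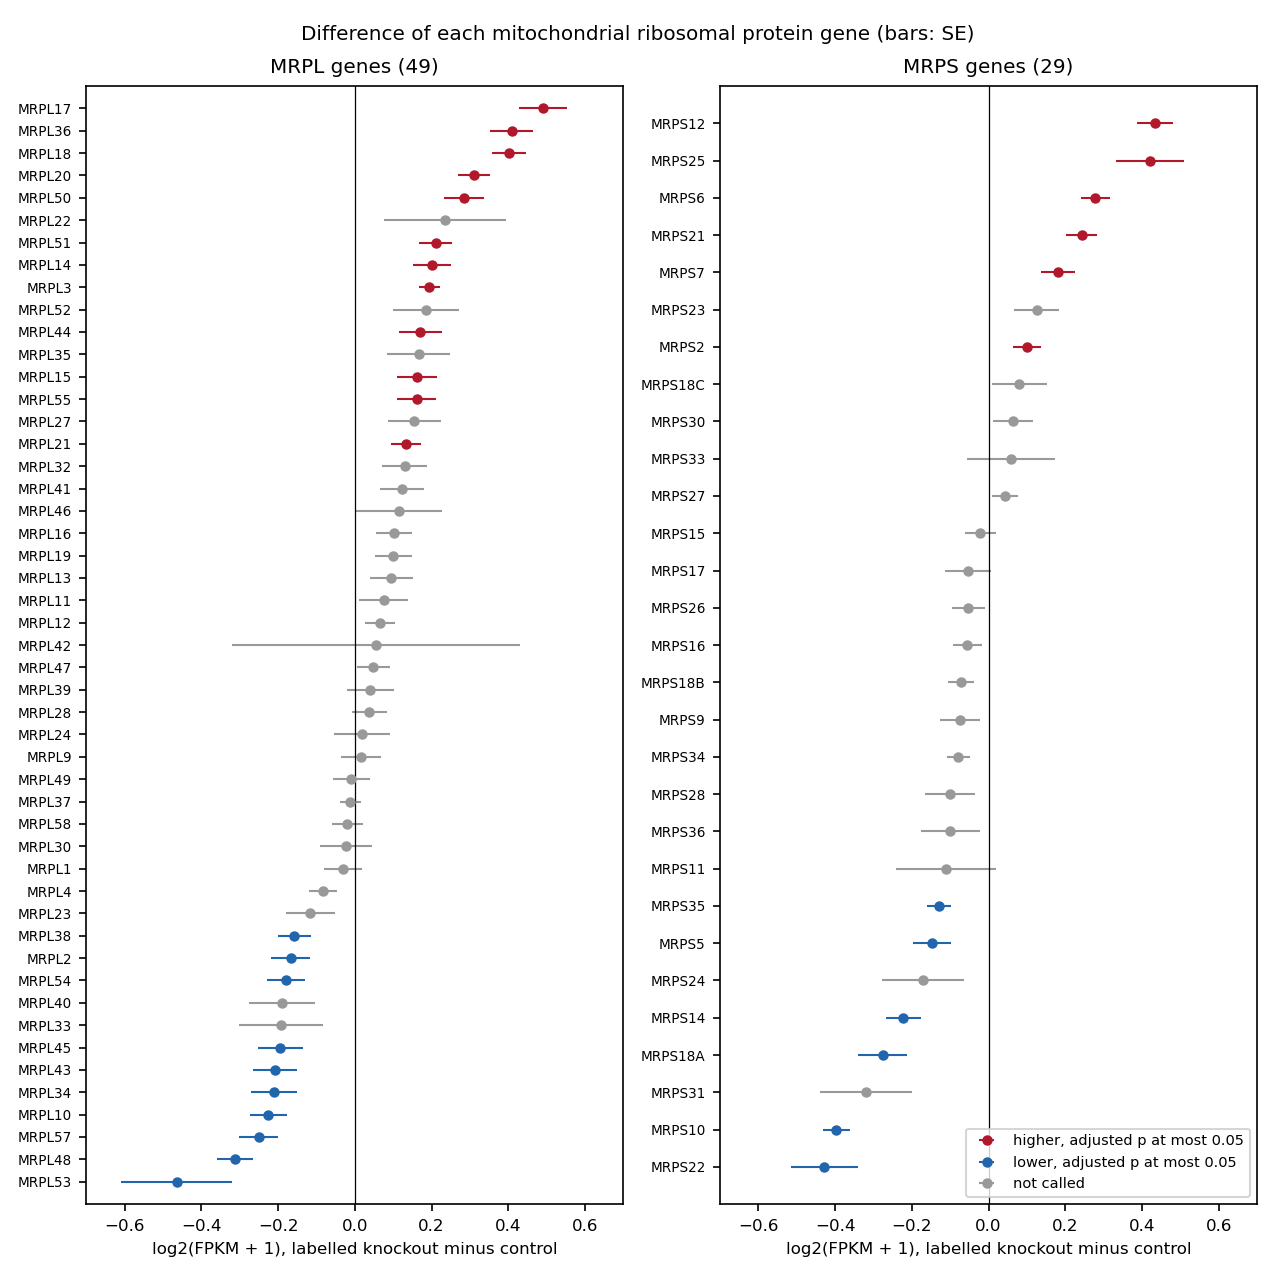
Difference in log2(FPKM + 1) between libraries labelled knockout and control libraries (x axis) for each of the 49 MRPL genes (left) and 29 MRPS genes (right), with limma standard errors as bars. Red points are higher and blue points lower at an adjusted p of at most 0.05, and grey points did not pass; both subunits hold points on each side of 0.

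**Figure D2:**
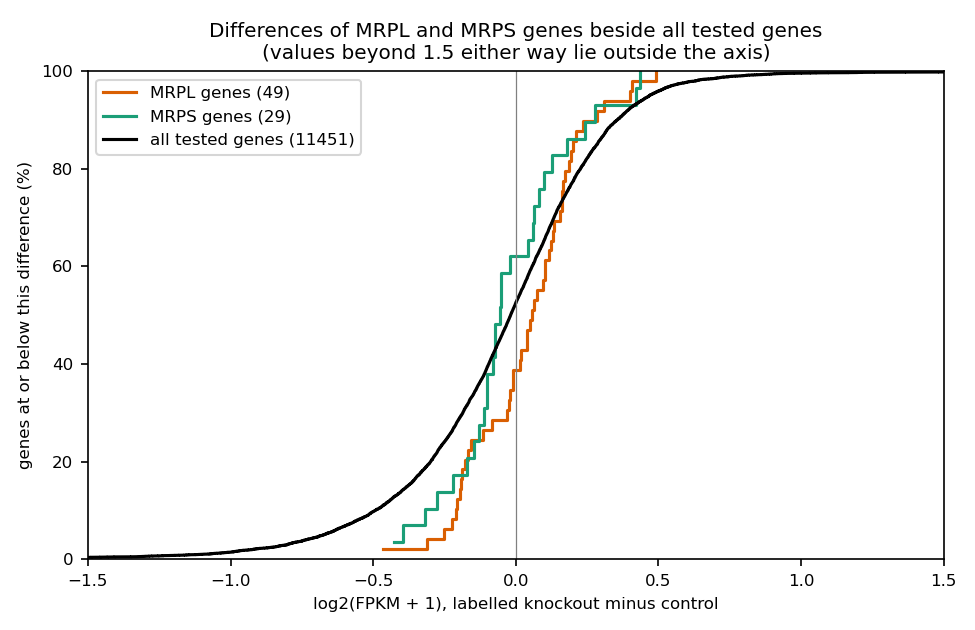
Cumulative share of genes (y axis, percent) at or below a given log2 difference between libraries labelled knockout and controls (x axis), for MRPL genes, MRPS genes and all 11451 tested genes. Both member curves are steeper than that of all genes and lie within 0.5 of 0.

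The summed level of each subunit did not separate the groups. MRPL genes together had 2367, 2343 and 2256 FPKM in the libraries labelled knockout, against 2186, 2228 and 2274 FPKM in the controls. MRPS genes together had 1280.3, 1253 and 1211 FPKM in the libraries labelled knockout, against 1232, 1277 and 1269.8 FPKM in the controls. The groups overlapped for both subunits, with the third library labelled knockout the lowest of its group in each. Means were 2322 ± 58.4 against 2229 ± 44.0 FPKM for MRPL and 1248 ± 35.2 against 1259.6 ± 24.1 FPKM for MRPS, libraries labelled knockout before controls (SD, n = 3 each).

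Mean levels of single members ran from 11.0 to 131 FPKM. The most abundant large subunit genes were MRPL3, MRPL37 and MRPL51, and the most abundant small subunit genes MRPS2, MRPS15 and MRPS7. MRPL37, found only in mitochondrial ribosomes, had 115, 118 and 119.5 FPKM in the libraries labelled knockout, against 119, 117 and 119 FPKM in the controls, with overlapping groups. MRPS15, the counterpart of a bacterial small subunit protein, had 104, 105 and 103 FPKM in the libraries labelled knockout, against 99.6, 109 and 108 FPKM in the controls. Neither of these abundant mRNAs passed the test. Lowest by mean were MRPL42 (11.1 FPKM), MRPL50 (14.8 FPKM) and MRPL30 (15.2 FPKM) in the large subunit, and MRPS23 (11.0 FPKM), MRPS25 (14.0 FPKM) and MRPS17 (14.3 FPKM) in the small. MRPL30 averaged 15.0 ± 0.279 FPKM in the libraries labelled knockout and 15.3 ± 1.47 FPKM in the controls, MRPS23 11.5 ± 0.821 and 10.5 ± 0.362 FPKM, and MRPS17 14.0 ± 0.895 and 14.6 ± 0.705 FPKM (SD, n = 3 each). None of these 3 passed the test. Replicates were close for most members: the median coefficient of variation was 4.64% in the libraries labelled knockout and 4.66% in the controls. MRPL42 was the least reproducible gene in both groups, with 8.68, 6.95 and 19.3 FPKM in the libraries labelled knockout, against 7.45, 15.0 and 9.31 FPKM in the controls.

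Among large subunit genes that were higher in the libraries labelled knockout, the 3 with the largest differences all encode counterparts of bacterial proteins. This kind makes up 30 of the 49 MRPL genes. MRPL17, a protein near the mouth of the exit tunnel, had 32.2, 35.7 and 30.2 FPKM in the libraries labelled knockout, against 22.0, 23.2 and 23.6 FPKM in the controls (log2 difference 0.49, SE 0.0632, limma adjusted p = 0.000732). MRPL36, a very small protein of the large subunit, had 38.6, 33.5 and 34.5 FPKM against 26.4, 25.9 and 27.1 FPKM in the controls (0.41, SE 0.0561, adjusted p = 0.00096). MRPL18, part of the central protuberance at the top of the subunit, had 71.1, 77.1 and 76.8 FPKM against 54.4, 56.8 and 58.3 FPKM in the controls (0.40, SE 0.0442, adjusted p = 0.000369). For each of them the lowest library labelled knockout stood above the highest control. MRPL20, whose bacterial counterpart binds ribosomal RNA early in assembly, had 88.8, 89.0 and 83.1 FPKM in the libraries labelled knockout, against 67.9, 72.6 and 69.3 FPKM in the controls (0.31, SE 0.0406, adjusted p = 0.000781).

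The other large subunit genes that were higher moved less. MRPL50, specific to mitochondria, had 16.2, 17.0 and 15.8 FPKM in the libraries labelled knockout, against 13.0, 12.7 and 14.0 FPKM in the controls (0.28, adjusted p = 0.00325). MRPL51, also specific to mitochondria, had 127, 126 and 117 FPKM against 102, 109 and 108 FPKM in the controls (0.21, adjusted p = 0.00495). Again neither gene had overlapping groups. MRPL14, the counterpart of a bacterial protein at the face that meets the small subunit, had 46.5, 45.3 and 45.5 FPKM in the libraries labelled knockout, against 37.0, 42.1 and 40.2 FPKM in the controls (0.20, adjusted p = 0.0123). MRPL3, the member with the highest level of all, had 141, 143 and 137 FPKM against 122, 122 and 123 FPKM in the controls (0.19, adjusted p = 0.00119). Both separated the groups, MRPL3 by a gap larger than the spread within either group. The remaining 4 higher genes, MRPL15, MRPL21, MRPL44 and MRPL55, had log2 differences of 0.13 to 0.17.

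Of the 10 lower large subunit genes, 7 were of the kind found only in mitochondria, which makes up 19 of the 49 MRPL genes. After removal of a trend in GC content and length, described further on, only MRPL48 and MRPL57 of these 7 were still called lower. MRPL38 and MRPL54 turned positive. The most negative value belonged to MRPL53, with 24.9, 16.3 and 17.1 FPKM in the libraries labelled knockout, against 25.5, 27.9 and 26.9 FPKM in the controls (-0.46, SE 0.145, limma adjusted p = 0.03). The first library labelled knockout lay close to the controls, and the 608 bases of exon that MRPL53 shares with CCDC142 on the same strand make its FPKM depend on how reads were divided. MRPL48, of the central protuberance, had 20.2, 19.1 and 18.3 FPKM against 24.3, 23.3 and 24.5 FPKM in the controls (-0.31, SE 0.0461, adjusted p = 0.00133). MRPL57, specific to mitochondria, had 14.7, 15.3 and 13.9 FPKM against 18.0, 16.7 and 18.0 FPKM in the controls (-0.25, SE 0.0510, adjusted p = 0.00537). In MRPL48 and MRPL57 all 3 libraries labelled knockout lay below all controls. MRPL34, the counterpart of a bacterial protein, averaged 32.0 ± 2.14 FPKM in the libraries labelled knockout and 37.2 ± 1.96 FPKM in the controls (-0.21, adjusted p = 0.0208). MRPL43, specific to mitochondria, averaged 26.3 ± 1.44 and 30.5 ± 1.76 FPKM (-0.21, adjusted p = 0.0192). MRPL54, also specific to mitochondria, averaged 44.3 ± 2.73 and 50.3 ± 1.52 FPKM (-0.18, adjusted p = 0.0201; SD, n = 3 each). Their groups did not overlap, and the other lower genes were MRPL2, MRPL10, MRPL38 and MRPL45.

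By position in the large subunit, no region moved as a block. The stalk recruits translation factors to the ribosome. Its base protein MRPL10 had 25.8, 24.7 and 23.4 FPKM in the libraries labelled knockout, against 30.2, 28.0 and 28.7 FPKM in the controls (-0.23, adjusted p = 0.00686). Its partners gave no call: MRPL12, which in addition binds the mitochondrial RNA polymerase, had 111, 103 and 108 FPKM against 99.9, 105 and 102 FPKM in the controls, and MRPL11 68.2, 60.1 and 60.2 FPKM against 59.6, 56.1 and 63.0 FPKM. Levels of both overlapped between groups. Of 8 proteins of the central protuberance, 2 were higher (MRPL18 and MRPL55) and 2 lower (MRPL48 and MRPL38). Over all tested genes, 25.3% were higher and 29.2% lower. MRPL55 averaged 32.9 ± 0.964 FPKM in the libraries labelled knockout and 29.3 ± 1.75 FPKM in the controls (0.16, adjusted p = 0.031), and MRPL38 57.4 ± 2.69 and 64.1 ± 1.79 FPKM (-0.16, adjusted p = 0.0181; SD, n = 3 each). The other 4, MRPL27, MRPL40, MRPL46 and MRPL58, had log2 differences of -0.19 to 0.16 and did not pass; MRPL58 is a peptidyl-tRNA hydrolase built into the ribosome.

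The exit tunnel and its membrane anchor held 2 higher genes, 1 lower gene and 4 that did not pass. MRPL44, related to RNase III enzymes, averaged 39.4 ± 0.960 FPKM in the libraries labelled knockout and 34.9 ± 2.69 FPKM in the controls (0.17, adjusted p = 0.0379; SD, n = 3 each), and MRPL17 is given above. MRPL45, which ties the tunnel exit to the inner membrane, had 44.2, 45.4 and 44.7 FPKM in the libraries labelled knockout, against 54.8, 53.0 and 46.8 FPKM in the controls (-0.19, adjusted p = 0.0269). All 3 controls lay above, the third by the least. MRPL22, which lines the tunnel, had 23.8, 32.7 and 20.6 FPKM against 20.7, 19.5 and 23.9 FPKM in the controls and did not pass, its second library labelled knockout standing high. MRPL23, MRPL24 and MRPL47 had log2 differences of -0.12 to 0.05. By origin, 9 of 30 large subunit genes with a bacterial counterpart were higher and 3 lower, with a median difference of 0.10. Of 19 specific to mitochondria, 3 were higher and 7 lower, with a median of -0.01. Of all tested genes, 25.3% were higher and 29.2% lower. These counts depend on the processing. Once the trend in GC and length was removed, the higher genes specific to mitochondria were MRPL41, MRPL44, MRPL50, MRPL51 and MRPL52. The lower genes of that kind were then MRPL48 and MRPL57. Among genes with a bacterial counterpart, MRPL10 alone was then lower and more were higher. The difference between these kinds was not tested.

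In the small subunit, the 2 genes with the largest positive differences were MRPS12 and MRPS25. MRPS12, the counterpart of a bacterial protein at the decoding centre, had 49.3, 45.9 and 45.9 FPKM in the libraries labelled knockout, against 34.1, 33.3 and 36.4 FPKM in the controls (0.43, SE 0.0473, limma adjusted p = 0.000356). MRPS25, specific to mitochondria, had 15.5, 18.3 and 15.0 FPKM against 11.1, 11.4 and 13.1 FPKM in the controls (0.42, SE 0.0889, adjusted p = 0.00634). Both separated the groups, although exons of each overlap a gene on the opposite strand (SARS2 and NR2C2), and no source used here says whether counting used strand. MRPS6, with a bacterial counterpart, had 61.6, 59.6 and 62.7 FPKM in the libraries labelled knockout, against 49.1, 49.6 and 52.5 FPKM in the controls (0.28, SE 0.0383, adjusted p = 0.000972). It shares 273 bases of exon with SLC5A3 on its own strand. MRPS21 had 18.3, 19.2 and 18.4 FPKM against 15.5, 16.0 and 15.3 FPKM in the controls (0.24, SE 0.0394, adjusted p = 0.00198), and GENCODE 29 names 8 pseudogenes of it. MRPS7, which binds ribosomal RNA in the head of the subunit, had 105, 108 and 97.1 FPKM against 93.0, 91.4 and 88.9 FPKM in the controls (0.18, adjusted p = 0.0127). MRPS2 averaged 111 ± 4.54 FPKM in the libraries labelled knockout and 103 ± 1.37 FPKM in the controls (0.10, adjusted p = 0.0491; SD, n = 3 each).

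The lower small subunit genes were led by MRPS22 and MRPS10. MRPS22, a protein specific to mitochondria in which inherited mutations cause mitochondrial disease, had 35.8, 30.5 and 27.4 FPKM in the libraries labelled knockout, against 42.2, 41.0 and 43.3 FPKM in the controls (-0.43, SE 0.0878, limma adjusted p = 0.00554). MRPS10, with a bacterial counterpart in the head of the subunit, had 19.6, 19.4 and 20.0 FPKM against 26.2, 25.7 and 26.7 FPKM in the controls (-0.40, SE 0.0352, adjusted p = 0.00015). MRPS10 had tight replicates in both groups and the smallest adjusted p of the 78 genes. MRPS18A averaged 27.9 ± 2.13 FPKM in the libraries labelled knockout and 34.0 ± 1.81 FPKM in the controls (-0.28, adjusted p = 0.00953). MRPS14, also of the head, had 16.0, 15.6 and 16.0 FPKM against 17.9, 19.6 and 18.6 FPKM in the controls (-0.22, adjusted p = 0.00507). Each was lower in all 3 libraries labelled knockout than in any control. MRPS5 averaged 24.6 ± 1.14 and 27.3 ± 1.17 FPKM (-0.15, adjusted p = 0.0376), and MRPS35, specific to mitochondria, 68.2 ± 1.83 and 74.8 ± 0.935 FPKM (-0.13, adjusted p = 0.0111; SD, n = 3 each, libraries labelled knockout before controls). MRPS31 had a larger mean difference than most called genes, with 18.1, 13.9 and 13.1 FPKM against 19.2, 20.4 and 17.1 FPKM in the controls, but its groups overlapped and it did not pass (-0.32, adjusted p = 0.0565).

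Some symbols do not match the subunit in which structures place the protein. MRPS18A and MRPS30 sit in the large subunit; MRPS30 had a log2 difference of 0.06 and did not pass. MRPS36 is a component of the 2-oxoglutarate dehydrogenase complex of the citric acid cycle, and it averaged 15.5 ± 1.69 FPKM in the libraries labelled knockout and 16.6 ± 0.691 FPKM in the controls (SD, n = 3 each) without passing. Of the other MRPS genes, 5 of 16 with a bacterial counterpart were higher and 3 lower, and 1 of 10 specific to mitochondria was higher and 2 lower. The called shares were 50% and 30%, beside 54.5% of all tested genes, which divided into 25.3% higher and 29.2% lower. The difference between these kinds was not tested.

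**Figure D3:**
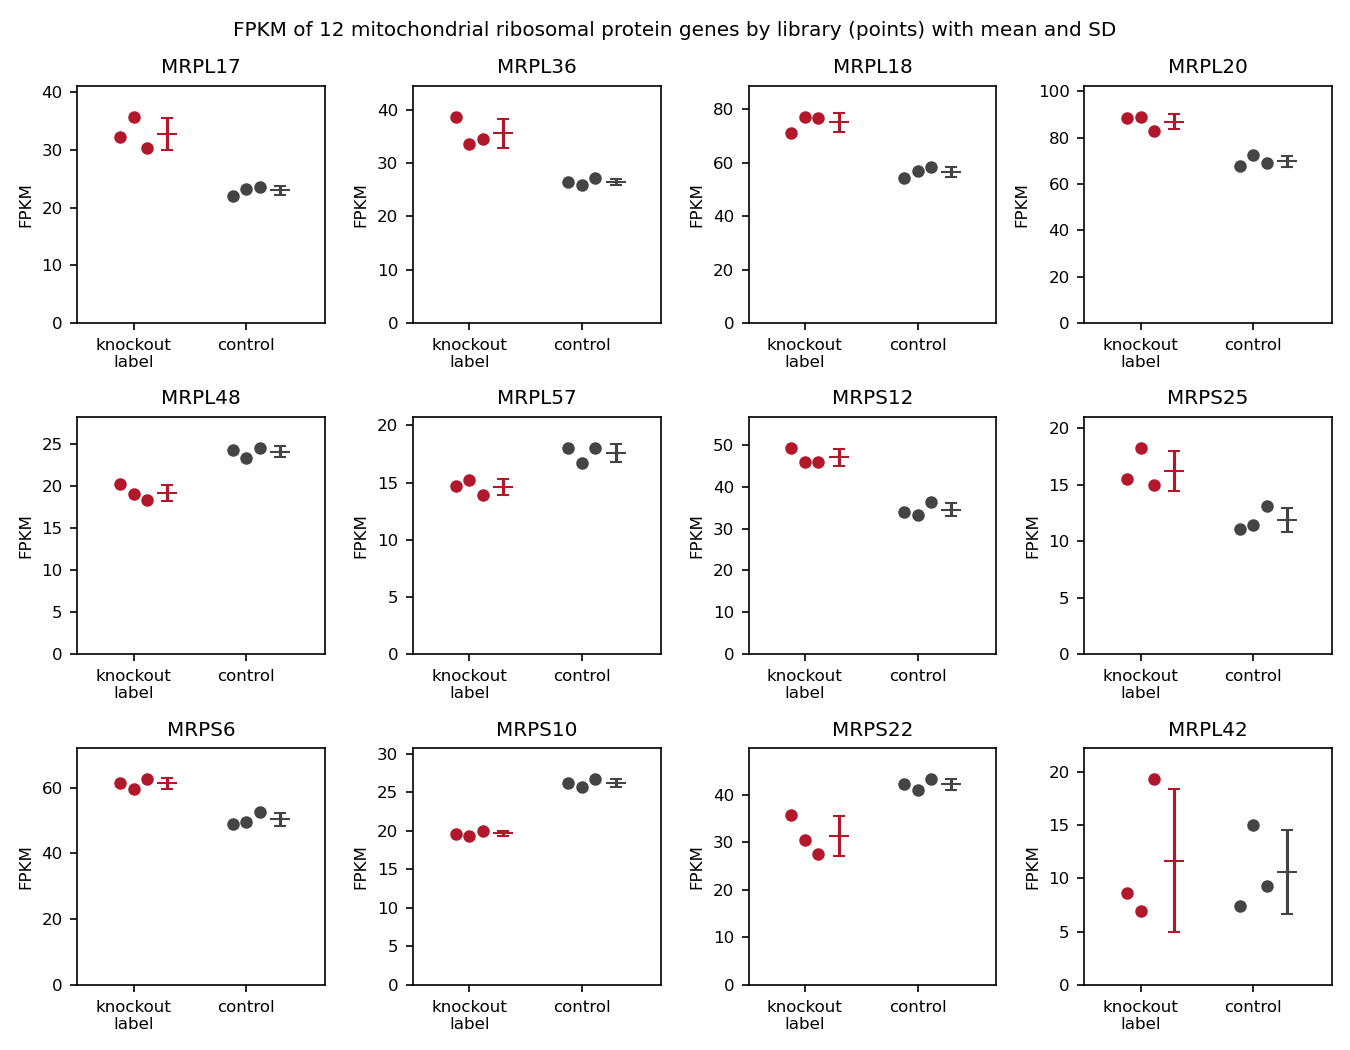
FPKM (y axis, from 0) of 12 members in each library, shown as points, with mean and SD beside them; libraries labelled knockout are red, controls dark grey. The groups are separate in 11 panels, and MRPL42, shown for its spread, reaches 19.3 FPKM in the third library labelled knockout and 15.0 FPKM in the second control.

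The sequence just upstream of the transcription start is shown for the gene with the largest positive and the largest negative difference in each subunit, because members that moved apart can be set beside each other. Letters come from RefSeq on GRCh38.p14 and run 5′ to 3′ on the coding strand for the 250 bases before the start. The windows are chr11:6683341-6683590 (minus strand) for MRPL17, chr2:74472681-74472930 (minus strand) for MRPL53, chr19:38930694-38930943 (plus strand) for MRPS12 and chr3:139343744-139343993 (plus strand) for MRPS22. Gene models of GENCODE 29 extend into the MRPL17 window and cover the MRPL53, MRPS12 and MRPS22 windows whole, since some transcripts there start further upstream. The start meant here is thus the RefSeq start. Capitals mark matches on either strand to short motifs of factors known to act at such promoters: the consensus NRF1 element, CCGGAAG for ETS factors such as GABP, AAGATGGC for YY1 and CACGTG, the E-box bound by MYC.
MRPL17: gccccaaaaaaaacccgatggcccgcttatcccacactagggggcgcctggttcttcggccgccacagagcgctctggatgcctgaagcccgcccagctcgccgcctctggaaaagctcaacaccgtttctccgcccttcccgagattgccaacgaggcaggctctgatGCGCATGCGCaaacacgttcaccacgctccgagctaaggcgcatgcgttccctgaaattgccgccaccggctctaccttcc
MRPL53: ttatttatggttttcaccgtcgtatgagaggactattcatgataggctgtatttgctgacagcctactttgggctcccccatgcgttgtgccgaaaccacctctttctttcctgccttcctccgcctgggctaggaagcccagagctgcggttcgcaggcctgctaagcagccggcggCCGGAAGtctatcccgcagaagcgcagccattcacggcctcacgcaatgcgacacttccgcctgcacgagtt
MRPS12: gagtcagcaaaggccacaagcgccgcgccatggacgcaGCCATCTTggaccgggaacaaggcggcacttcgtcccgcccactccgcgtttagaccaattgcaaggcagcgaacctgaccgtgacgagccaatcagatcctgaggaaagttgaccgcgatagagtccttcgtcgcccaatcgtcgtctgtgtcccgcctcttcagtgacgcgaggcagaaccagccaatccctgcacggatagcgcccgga
MRPS22: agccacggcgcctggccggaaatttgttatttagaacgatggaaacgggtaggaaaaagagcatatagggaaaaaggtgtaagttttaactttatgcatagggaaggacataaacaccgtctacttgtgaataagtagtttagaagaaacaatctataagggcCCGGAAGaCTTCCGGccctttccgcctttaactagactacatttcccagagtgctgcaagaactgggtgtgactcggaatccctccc
Positions are counted back from the start. MRPL17 held an NRF1 match beginning at -81, MRPL53 an ETS match at -72, and MRPS12 a YY1 match, on the opposite strand, at -212. MRPS22 held an ETS match on each strand, at -87 and -79. Further ETS matches reached past the printed letters and are not in capitals. They began at -5 in MRPS12, at 1 in MRPL53 and at 6 in MRPS22, positive positions being counted onward from the start. The ETS motif was thus present in MRPS12, which was higher, as well as in MRPL53 and MRPS22, which were lower.

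Over windows of 300 bases, 250 before and 50 after the start, 69 of the 78 members had a RefSeq promoter. The YY1 motif was found in 28.99% of members' windows, beside 5.89% of the windows of tested genes. The ETS motif was found in 42.0% of members and 21.1% of tested genes. The remaining 2 motifs were not more frequent in members: NRF1 was found in 11.6% of members and 12.7% of tested genes, and the E-box in 8.70% and 10.6%. Members that were higher and members that were lower both held the YY1 motif more often than tested genes, 37.5% of 16 and 28.6% of 14, as did 25.6% of the 39 that were not called. The ETS motif was found in 31.3% of higher, 57.1% of lower and 41.0% of uncalled members. These shares are descriptions of letters and were not tested.

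Several members lie head to head with another gene, with starts within 1000 bases of each other on opposite strands. Starts here are those of the GENCODE 29 gene models, not the RefSeq starts of the windows above. Of 26 such members, 11 were called, and the neighbour was called in the same direction for 5, in the opposite direction for 3 and not called for 3. Of all tested genes, 54.5% were called, 25.3% higher and 29.2% lower. MRPL18 starts 63 bases from TCP1, a subunit of the cytosolic chaperonin. TCP1 averaged 343 ± 9.52 FPKM in the libraries labelled knockout and 251 ± 14.2 FPKM in the controls (0.45, limma adjusted p = 0.000223; SD, n = 3 each), the same direction as MRPL18. MRPL51 and NCAPD2, MRPS7 and GGA3, and MRPL21 and IGHMBP2 were likewise both higher, and MRPL54 and APBA3 both lower. Exons of MRPL51 and NCAPD2, and of MRPS7 and GGA3, overlap on opposite strands, and whether counting used strand is unknown. The pairs called in opposite directions were MRPL50 and ZNF189, MRPL14 and TMEM63B, and MRPL57 and SKA3. MRPL46 and MRPS11 face each other at 34 bases, and neither was called.

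Transcript length and base composition set the members apart from the table. By the longest protein-coding transcript in GENCODE 29, the median length was 1387 bases for MRPL and 1640 bases for MRPS genes, beside 3348.5 bases for all tested genes. Median GC content was 51.5% for MRPL, 47.3% for MRPS and 48.8% for all tested genes. Across all tested genes with these values (n = 11160), the log2 difference correlated with GC at r = -0.20 and with log2 length at r = 0.20; across the 78 members r was -0.02 and 0.08. These correlations are across genes, which are not independent and share their libraries. When a trend in GC and length was removed from each library, the calls among members, higher and then lower, became 21 and 3 for MRPL and 9 and 3 for MRPS, against 12 and 10 for MRPL and 6 and 6 for MRPS on FPKM as deposited. The balance over all tested genes moved the same way, to 30.5% higher and 24.7% lower after removal, against 25.3% higher and 29.2% lower on FPKM as deposited. All 18 genes that were higher on deposited FPKM were higher here as well, and 6 of the 16 lower genes were lower here: MRPL10, MRPL48, MRPL57, MRPS10, MRPS14 and MRPS22. A further 12 members became higher, among them MRPL41 (0.12 on deposited FPKM and 0.57 after removal) and MRPL12 (0.06 and 0.35). The medians became 0.16 for MRPL and 0.03 for MRPS, so the sign of the MRPS median depends on this choice. What part of the length and GC trend is technical was not tested.

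**Figure D4:**
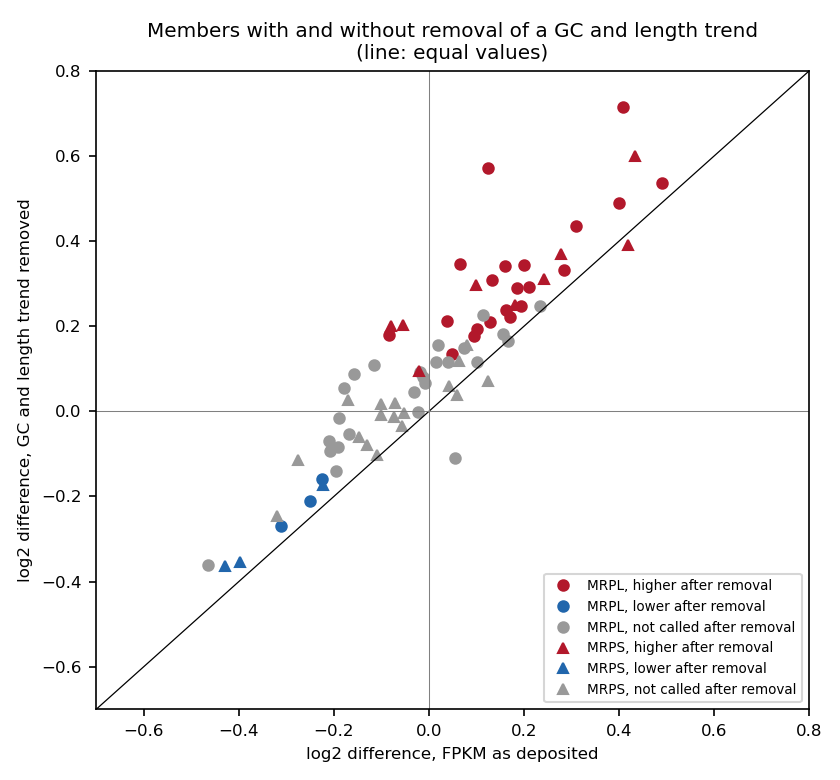
Log2 difference of each member on FPKM as deposited (x axis) and after removal of a trend in transcript GC content and length (y axis), circles for MRPL and triangles for MRPS, coloured by the call after removal. Most points lie above the line of equal values, with median shifts of 0.092 for MRPL and 0.069 for MRPS.

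The calls differ in how firmly they stand. Of the 34, 19 were called under all 15 alternative settings: MRPL3, MRPL10, MRPL14, MRPL17, MRPL18, MRPL20, MRPL36, MRPL48, MRPL50, MRPL51, MRPL57, MRPS6, MRPS7, MRPS10, MRPS12, MRPS14, MRPS21, MRPS22 and MRPS25. MRPS18A (-0.11) and MRPS35 (-0.08) lost their call once the trend in GC and length was taken out, and under no other setting. The other 13 lost it when a library was left out, and some under further settings. Of these, 8 also lost it once the trend in GC and length was taken out: MRPL2, MRPL34, MRPL43, MRPL45, MRPL53, MRPS5, and MRPL38 (0.09) and MRPL54 (0.05), whose difference turned positive. MRPL45 lost it on the TPM scale and with median centring (both -0.17). MRPS5 lost it on the TPM scale (-0.12), with median centring (-0.12), with quantile normalization (-0.13) and with no variance trend (-0.15). MRPS2 (0.09 to 0.10) lost it with a pseudocount of 0.1, with quantile normalization and with no variance trend, and MRPL44 (0.17) with no variance trend. Leaving out a library also lowered the called share of all tested genes, from 54.5% to between 47.6% and 49.3%. MRPL38 lost its call without the third control (-0.14). MRPL55 lost it without the third control or the first or the second library labelled knockout (0.11 to 0.16). MRPL2 (-0.17 to -0.12), MRPL43 (-0.20 to -0.17), MRPL54 (-0.18 to -0.14) and MRPS5 (-0.15 to -0.12) each lost it without the second and without the third library labelled knockout. The controls without which they lost it were the first and the third for MRPL2, the first and the second for MRPL43, and the second and the third for MRPL54 and MRPS5. MRPL21 (0.10 to 0.14) and MRPL34 (-0.21 to -0.17) lost it without the first or the second control or the second library labelled knockout, MRPL21 also without the third control and MRPL34 without the first library labelled knockout. MRPL15 (0.11 to 0.18), MRPL44 (0.12 to 0.19), MRPL45 (-0.21 to -0.15), MRPL53 (-0.50 to -0.36) and MRPS2 (0.07 to 0.11) lost it under 5 of the 6 omissions each. The omission that left the call in place was that of the third control for MRPL15 and MRPL45, of the first control for MRPL44, of the first library labelled knockout for MRPL53, and of the third library labelled knockout for MRPS2. Exons of 30 of the 78 genes overlap another listed gene, on the same strand in 10, and GENCODE 29 names a pseudogene for 34. Of the 19 genes called under all settings, MRPL3, MRPL20, MRPL48, MRPL50, MRPL51, MRPL57, MRPS6, MRPS10 and MRPS21 have such a pseudogene. MRPS5 shares 550 bases of exon with ZNF514 on its own strand. Among the 48 without exon overlap, 12 were higher and 9 lower, a called share of 43.8% beside 54.5% of all tested genes.

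Genes that build or serve the mitochondrial ribosome outside the MRPL and MRPS names also changed in both directions. Of the other small subunit proteins DAP3, CHCHD1, AURKAIP1 and PTCD3, 0 of 4 passed the limma test, at unadjusted p of 0.198 or more. GADD45GIP1, a large subunit protein outside the MRPL naming, averaged 24.6 ± 0.813 FPKM in the libraries labelled knockout and 27.4 ± 0.799 FPKM in the controls (-0.15, adjusted p = 0.0181; SD, n = 3 each), a call lost without the second or the third control or the first or the third library labelled knockout (-0.14 to -0.13) and turned to 0.02 once the trend in GC and length was taken out. Of 17 tested translation factors, 7 were higher and 2 lower, with a median of 0.08. The changed share was 52.9%, near the 54.5% of all tested genes, which divided into 25.3% higher and 29.2% lower. TSFM, a nucleotide exchange factor of translation elongation, had 35.3, 38.4 and 32.1 FPKM in the libraries labelled knockout, against 23.0, 25.04 and 26.1 FPKM in the controls (0.49, adjusted p = 0.00137). OXA1L, which inserts new chains into the inner membrane, had 79.2, 82.2 and 82.5 FPKM against 57.1, 57.9 and 62.7 FPKM (0.45, adjusted p = 0.000193). MTIF3, an initiation factor, went the other way, with 26.5, 25.9 and 25.7 FPKM against 35.6, 34.5 and 36.7 FPKM in the controls (-0.44, adjusted p = 0.000123). TACO1, an activator of COX1 translation, was lower as well (-0.23, adjusted p = 0.0126), though not once the trend in GC and length was taken out (-0.09).

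Of 29 tested rows for assembly and ribosomal RNA modification, 10 were higher and 4 lower, with a median of 0.04. The changed share of 48.3% was below that of all tested genes. MIEF1, whose upstream reading frame encodes a peptide that binds the assembling large subunit, had 18.7, 18.3 and 18.0 FPKM in the libraries labelled knockout, against 12.9, 12.9 and 12.9 FPKM in the controls (0.48, limma adjusted p = 8.05e-05). MRM3, a methyltransferase of the large ribosomal RNA (0.41, adjusted p = 0.000738), and the helicase DHX30 (0.37, adjusted p = 0.000124) were higher too. NOA1, a GTPase of small subunit assembly, had 24.8, 25.5 and 24.7 FPKM against 33.7, 31.4 and 31.3 FPKM in the controls (-0.35, adjusted p = 0.00049). Among 13 tested genes of mitochondrial transcription and DNA maintenance, 7 were higher and 0 lower, with a median of 0.19, and 6 did not pass the limma test. The changed share of 53.8%, all of it higher, stood beside 25.3% higher and 29.2% lower over all tested genes. Whether this balance differs from that of all tested genes was not tested. TFAM, which packages mitochondrial DNA and starts its transcription, had 27.3, 28.9 and 27.8 FPKM in the libraries labelled knockout, against 20.7, 18.0 and 20.7 FPKM in the controls (0.48, adjusted p = 0.000694). PNPT1, a ribonuclease of mitochondria, had 32.3, 32.1 and 30.5 FPKM against 22.8, 22.3 and 22.5 FPKM (0.47, adjusted p = 9.05e-05). The DNA polymerase subunits POLG (0.35, adjusted p = 0.00273) and POLG2 (0.26, adjusted p = 0.0257) were higher, POLG2 not without the second control or the first or the second library labelled knockout (0.25 to 0.28). Rows of the mitochondrial chromosome numbered 0, so the ribosomal RNAs and mRNAs it encodes were not analysed here.

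Of 10 tested transcription factors and coactivators known from promoters of nuclear mitochondrial genes, 5 were higher and 2 lower, with a median of 0.11. The changed share was 70.0%, 7 of 10 genes, beside 54.5% of all tested genes. MYC had 55.1, 56.6 and 56.0 FPKM in the libraries labelled knockout, against 43.1, 41.7 and 41.1 FPKM in the controls (0.41, limma adjusted p = 9.68e-05). PPRC1, a coactivator, had 18.5, 18.4 and 15.5 FPKM against 11.8, 12.7 and 10.1 FPKM (0.56, adjusted p = 0.00265). Both separated the groups. PPARGC1B, a related coactivator at a low level, averaged 1.75 ± 0.162 FPKM in the libraries labelled knockout and 1.08 ± 0.125 FPKM in the controls (0.40, adjusted p = 0.00758; SD, n = 3 each). Of the ETS factor GABP, the subunit GABPB1 was higher (0.30, adjusted p = 0.00151), GABPB2 was lower at a low level, with means of 2.56 ± 0.136 FPKM in the libraries labelled knockout and 3.08 ± 0.183 FPKM in the controls (-0.20, adjusted p = 0.0439; SD, n = 3 each), and GABPA (0.07) did not pass. The GABPB2 call was lost when any of the 6 libraries was left out (-0.23 to -0.17), with quantile normalization (-0.06), with median centring (-0.17) and on the TPM scale (-0.18). SP1, the other lower gene, averaged 32.5 ± 0.671 FPKM in the libraries labelled knockout and 37.1 ± 0.403 FPKM in the controls (-0.19, adjusted p = 0.00255; SD, n = 3 each). YY1 was higher (0.14, limma adjusted p = 0.0292), a call that was not followed across the other settings. The factor NRF1 (-0.08) did not pass.

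**Figure D5:**
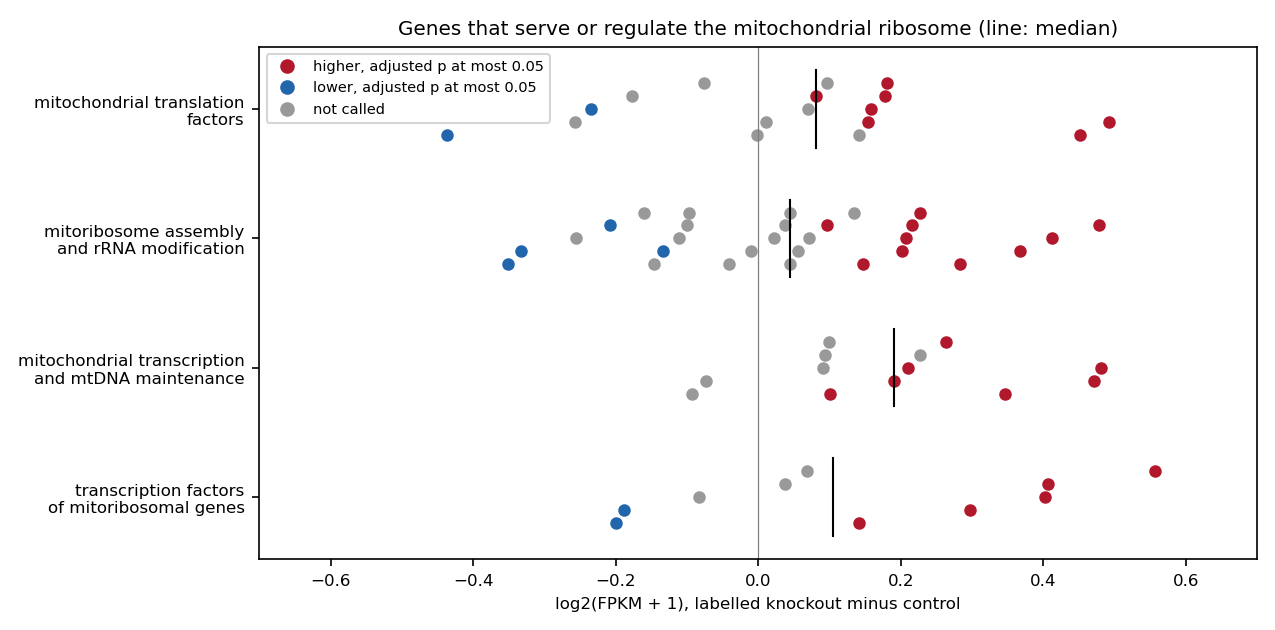
Log2 difference between libraries labelled knockout and controls (x axis) for the tested genes of 4 lists, with 1 point per gene, red for higher, blue for lower and grey for not called, and a line at each median. Medians lie between 0.04 for assembly and 0.19 for mitochondrial transcription and DNA maintenance.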

How the data were processed

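RNA-seq of 6 HCT15 libraries was analysed, 3 per group. Per the labels' protocols, RNA was extracted with TRIzol and VAHTS libraries were read as pairs of 150 bases. The tools named in the submitters' processing notes are HISAT2 2.2.1 and StringTie 2.0.4, with build hg38. The authors deposited FPKM, per the file headers; no source used here gives the annotation, strand use or row filter. FPKM of genes with shared exons or copies depend on how reads were divided. Depth is unknown: at most 0.93% of ratios of values below 0.5 FPKM fell in any window of 0.1%, so reads were not recovered.

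limma 3.58.1 (R 4.3.3) was fitted to log2(FPKM + 1) of 11451 genes whose mean reached 1 FPKM, with a variance trend, no covariates and 2-sided Benjamini-Hochberg adjusted p at a threshold of 0.05. The pseudocount understates changes of low genes. With 3 libraries against 3, an exact permutation test cannot go below 0.1 for 1 gene and was not used. Python 3.11.15 made tables and figures. The procedure was also run on simulated data with far fewer changed genes than were called here. The changes entered were larger than those of the members on FPKM as deposited. That run therefore says nothing about differences of the members' size. Alternatives were a pseudocount of 0.1, no filter, a mean of 5 FPKM, TPM scaling, median centring, quantile normalization, removal of a GC and length trend, no variance trend, a replicate block and leaving out each library. Gene positions, lengths and overlaps are from GENCODE 29 (GRCh38), matched for 12220 rows. Members and lists were chosen with earlier results of these data known. Values per library or as means are given, per subunit, for up to 8 higher and 8 lower members with the largest differences, the 3 most and least abundant, the stalk, central protuberance and tunnel genes, and up to 4 changed genes per pathway list. MRPL42 falls under the least abundant. MRPS30, MRPS31, MRPS36, TCP1, GABPA, GABPB2, SP1, YY1 and NRF1 were added after their values were seen.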

Additional observations from a re-analysis of the deposited data

How the results depend on the processing

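With the GC and length trend removed, MRPL genes numbered 21 higher and 3 lower with a median of 0.155, MRPS genes 3 lower with a median of 0.026, and the log2 differences of MRPL38 (0.0885), MRPL54 (0.0549) and GADD45GIP1 (0.0232) turned positive; the cause was not tested. Leaving out each library in turn gave 4 to 8 lower MRPL genes, beside 10 with all libraries. For assembly and ribosomal RNA modification it gave 8 to 11 changed genes, beside 14. Fewer libraries enter these fits, and the called share of all tested genes fell too, from 54.5% to between 47.6% and 49.3%. Without single libraries, MRPL genes ranged from 8 to 14 higher and MRPS genes from 5 to 7 in either direction. Members called in either direction numbered 34, and 32 with median centring, 33 with TPM scaling and 34 with quantile normalization. The called share of all tested genes was 54.9% with median centring, 54.6% with TPM scaling and 54.7% with quantile normalization. Beside the GC and length trend, no choice of filter, pseudocount or scaling moved the higher or lower count of either subunit by more than 1.5 times. PPARGC1B and GABPB2 were not tested at a mean of 5 FPKM. Same-numbered libraries did not deviate together across genes (r = -0.0354, -0.0367 and 4.539e-05). These values show no shared deviation, but cannot tell whether same-numbered libraries were prepared together. With the replicate number as a block, 31 members were called, 29 of them shared with the fit without it, and 50.5% of all tested genes. MRPL15, MRPL21, MRPL54, MRPS2 and MRPS5 were not called with that block. Unknown depth leaves the spread between 3 libraries as the only measure of error, and Dixon's test for an outlying library was not applied to groups of 3.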
